A study of Mus musculus with 12 samples.

Results

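The insulin-like growth factor (IGF) system was followed in cultured mouse astrocytes through 10 genes: the ligands Igf1 and Igf2, the receptors Igf1r and Igf2r, and the binding proteins Igfbp2, Igfbp3, Igfbp4, Igfbp5, Igfbp6 and Igfbp7. The genes were taken by name, and each was read from every array probe set (a group of probes for a transcript) annotated to it alone, which gave 28 of the 45037 probe sets tested and 10 of 18193 genes. Values with a size above 100 were to be set to missing; none of the 28 probe sets held one. A further probe set, shared by Igf2r and its antisense transcript Airn, was left out. The list was drawn up with earlier results of these data known, so the counts and p-values below describe these genes and are not independent evidence for the list.

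The IGF ligands are small secreted proteins related to insulin. Both signal through the tyrosine kinase receptor Igf1r, which feeds the PI3K-AKT and ERK cascades, while Igf2r, the mannose-6-phosphate receptor, takes up Igf2 for breakdown in lysosomes and sorts lysosomal enzymes. The binding proteins hold most IGF outside the cell, and proteases that cut them set it free. In brain, Igf1 is made by microglia, some neurons and reactive astrocytes, Igf2 mainly by the meninges and choroid plexus, and Igfbp2 by astrocytes.

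Astrocytes carrying eGFP were isolated from hippocampus and cortex of C57Bl/6j mice, either neonatal (3 d in the sample labels and 2 days in the protocol) or adult (6 to 8 weeks), and kept for 22 h on a brain section before the green cells were picked off by suction. Sections were cut either from APdE9 mice, which are transgenic for chimeric mouse/human APPSwe and for PS1-dE9, each driven by a mouse prion protein promoter, or from littermates without the transgenes; the astrocytes themselves did not carry these transgenes as far as the labels say. The 4 groups were thus neonatal cells on wild-type sections, neonatal cells on APdE9 sections, adult cells on wild-type sections and adult cells on APdE9 sections, with 3 one-colour Affymetrix arrays each. Percoll was used for adult cells only, and their medium (DMEM/F12) held G5 supplement, a mixture that contains insulin; neonatal cells had DMEM and no supplement. Isolation and medium therefore cannot be told apart from age. The arrays are labelled as biological replicates, but RNA was isolated after pooling (n = 3), and no label says that the pools came from separate cultures. The p-values therefore cover the spread between pools alone, part of which may be technical.

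The deposited log2 signals are centred: for every probe set the median of the 12 arrays is 0. Differences between groups can be read from them, but levels cannot, and no gene can be set against another in level. The value of a gene is the mean over its probe sets. The presence of astrocyte markers could therefore not be checked, only how they differed. Of 14 measured astrocyte markers 11 were lower and 2 higher in adult than in neonatal cells on wild-type sections. Of 14 microglia and macrophage markers 13 were lower and 1 higher. By the same test, given below, 14.9% of all genes were higher and 15.2% lower. Between APdE9 and wild-type sections 6 astrocyte markers were lower and 0 higher in neonatal cells, where 3.76% of all genes differed. In adult cells 4 were lower and 5 higher, where 17.7% of all genes differed. In these bulk samples fewer cells of a type and less RNA per cell cannot be told apart. The number of arrays limits the precision.

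On APdE9 sections adult astrocytes had less Igf1 and Igfbp4 and more Igf2, Igfbp3 and Igfbp5 than on wild-type sections, with smaller falls of Igf1r and Igfbp7. In neonatal astrocytes the same change of section was called for Igfbp3 alone, which rose. A call here is an adjusted p under 0.05 in a limma fit of all 12 arrays, adjusted by Benjamini-Hochberg over all 18193 genes. In adult cells 7 of the 10 members were called, 3 higher and 4 lower, where 17.7% of all genes were called; in neonatal cells 1 of 10 was called, where 3.76% of all genes were. Over all genes 8.26% were higher and 9.4% lower in adult cells, and 1.21% were higher and 2.55% lower in neonatal cells. The difference between the adult and the neonatal section effect was called for 5 members, 3 with a higher and 2 with a lower value in adults, where 10.1% of all genes were called (5.19% higher, 4.88% lower).

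**Figure D1:**
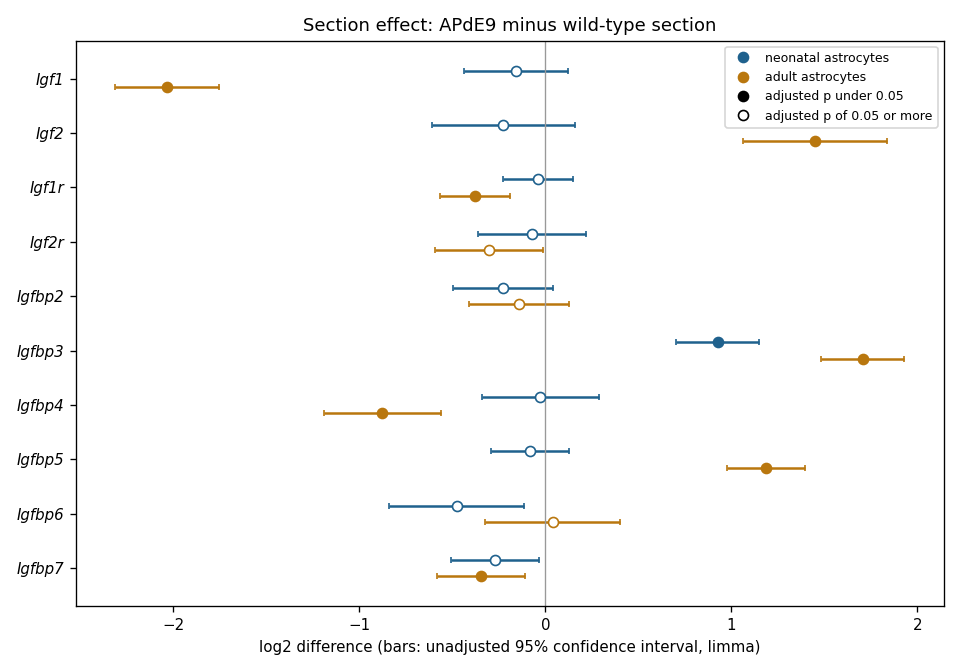
Log2 difference between APdE9 and wild-type sections (x axis) for each of the 10 genes (y axis) in neonatal (blue) and adult (orange) astrocytes, 3 arrays per group; bars are unadjusted 95% confidence intervals and filled points have an adjusted p under 0.05. Igfbp3 lies to the right in both ages (0.93 and 1.71), while Igf1 (-2.04), Igf2 (1.45) and Igfbp5 (1.19) stand apart from 0 in adult cells.

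The comparison of adult with neonatal cells called more members on wild-type sections than either section effect did. There all 10 members differed between adult and neonatal astrocytes, 5 higher and 5 lower in adults, where 30.1% of all genes were called (14.9% higher, 15.2% lower). On APdE9 sections 5 of 10 were called, 2 higher and 3 lower, where 23.5% of all genes were (11.7% higher, 11.9% lower). These comparisons use the same 12 arrays as the section effects, so a low value in adult cells on wild-type sections enters both.

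**Figure D2:**
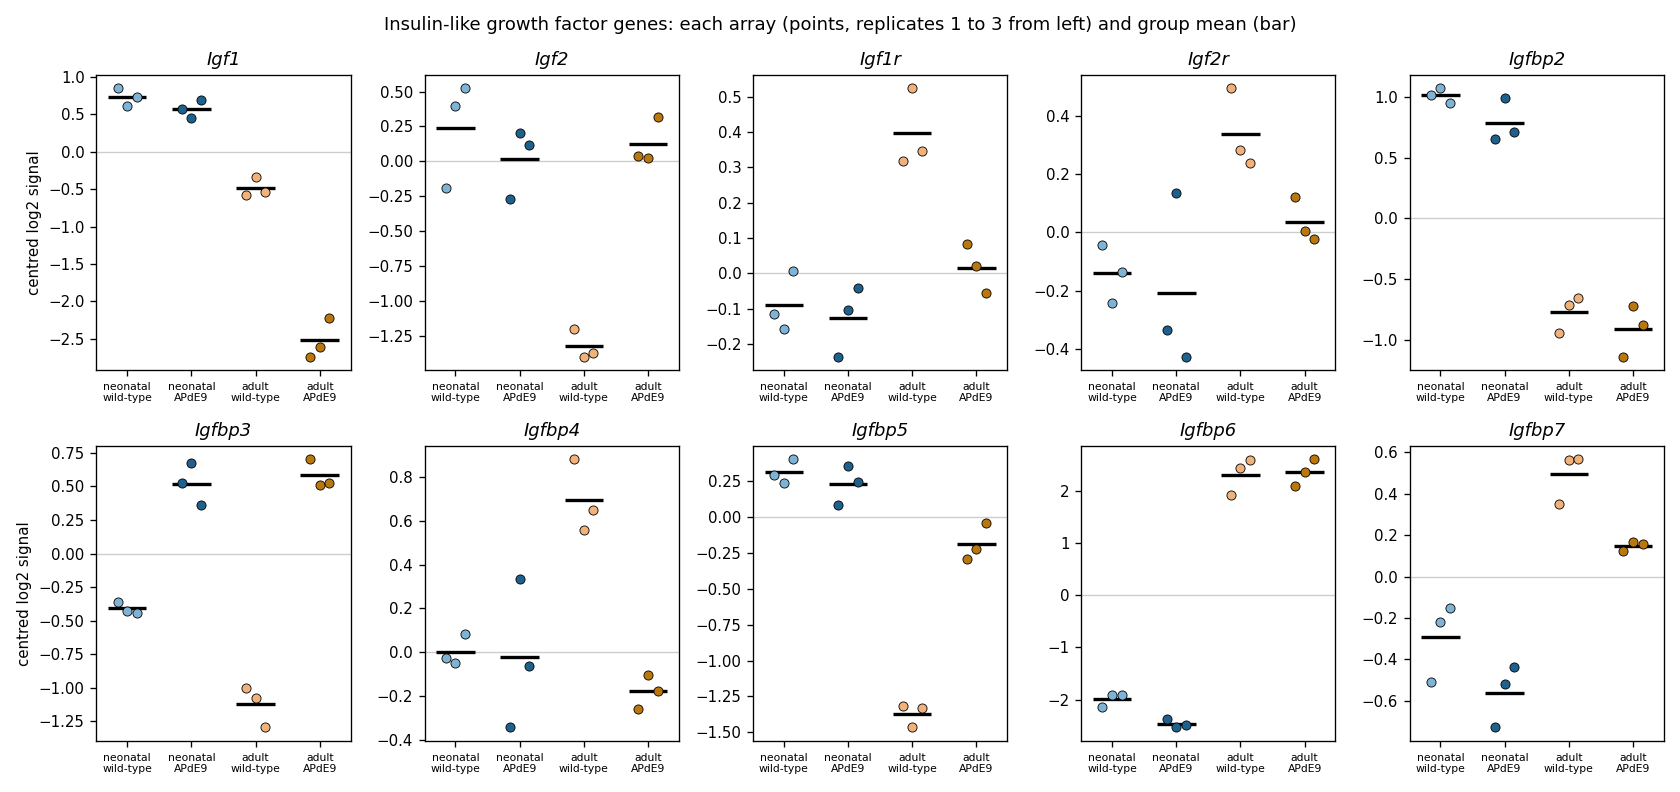
Centred log2 signal (y axis, a scale of its own for each gene) on the 12 arrays for the 10 genes; points are arrays, bars are group means, and 0 is the median of the probe sets over all arrays. Igf2, Igfbp3 and Igfbp5 are lowest in adult cells on wild-type sections, Igf1 is lowest in adult cells on APdE9 sections, and Igfbp6 separates the ages.

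Among the ligands, Igf1 fell on APdE9 sections in adult cells by more than any other member. Its gene lies on chromosome 10 (87858265 to 87937047, plus strand, GRCm38.p6) and was read by 4 probe sets. The bases before the RefSeq start site supplied for Igf1 are shown because it had the largest section effect of the members. They lie inside the span of the gene, so the bases before its outer end at 87858265 are not shown. The arrays do not tell which start was used. The capitals in this and the sequences further below mark every match to the motifs searched on both strands, and the window is the 250 bases just before the start.
Igf1, chr10:87860861-87861110, plus strand: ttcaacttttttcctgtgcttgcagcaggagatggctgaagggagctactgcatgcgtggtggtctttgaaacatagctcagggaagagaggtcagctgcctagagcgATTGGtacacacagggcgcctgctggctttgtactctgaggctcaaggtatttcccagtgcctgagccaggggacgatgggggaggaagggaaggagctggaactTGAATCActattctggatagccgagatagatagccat
It held 1 CCAAT box (CCAAT, read on the opposite strand, its first base in this window at -142) and 1 AP-1 site (TGANTCA, at -37), which occur in 33.8% and 6.75% of the 32851 RefSeq promoter windows of that length.

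Igf1 stood at 0.85, 0.61 and 0.73 in neonatal cells on wild-type sections (replicates 1 to 3) and at 0.56, 0.45 and 0.69 on APdE9 sections. In adult cells it stood at -0.58, -0.34 and -0.54 on wild-type sections and at -2.74, -2.60 and -2.22 on APdE9 sections. The neonatal groups overlapped, and every adult array lay below every neonatal array, with the adult cells on APdE9 sections in a range of their own at the bottom. The section effect in adult cells was -2.04 ± 0.13 (log2 difference ± SE of the fit, n = 3 arrays per group; adjusted p = 7.75e-07), a 4.10-fold lower signal, against -0.16 ± 0.13 in neonatal cells (adjusted p = 0.689, 95% interval -0.44 to 0.12). The difference of the effects was -1.88 ± 0.18 (adjusted p = 6.31e-05). Adult cells were below neonatal cells by a log2 difference of -1.21 ± 0.13 on wild-type sections (adjusted p = 1.15e-05) and of -3.09 ± 0.13 on APdE9 sections (adjusted p = 4.27e-09), an 8.52-fold lower signal.

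The 4 probe sets of Igf1 each passed the test for the adult section effect, from -2.56 to -1.41, and for the difference of the effects, from -2.12 to -1.49. For age on APdE9 sections they ran from -3.57 to -2.57, each called. Over all probe sets 12.7% passed in adult cells, 6.73% in the difference and 16.4% for age on APdE9 sections. Microglia, a source of Igf1 in brain, are the cell type whose markers moved most with age. The mean of the 14 microglia markers lay between 1.50 and 2.19 on the neonatal arrays, between -2.42 and -2.16 in adult cells on wild-type sections and between -1.67 and -1.56 in adult cells on APdE9 sections. With age the mean of these markers went the way of Igf1. In the adult section effect 6 of the 14 rose and 1 fell as Igf1 fell, where 8.26% of all genes were higher and 9.4% lower. The part of microglial RNA in the Igf1 values was not tested.

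Igf2, the fetal growth ligand that is expressed from the paternal allele in most tissues, went the other way in adult cells. It lies on chromosome 7 (142650768 to 142666816, minus strand) and RefSeq gives it 4 start sites in the table used. The window before the most downstream start is shown, as the ligand that moved against Igf1; the arrays do not tell which start was used.
Igf2, chr7:142657497-142657746, minus strand: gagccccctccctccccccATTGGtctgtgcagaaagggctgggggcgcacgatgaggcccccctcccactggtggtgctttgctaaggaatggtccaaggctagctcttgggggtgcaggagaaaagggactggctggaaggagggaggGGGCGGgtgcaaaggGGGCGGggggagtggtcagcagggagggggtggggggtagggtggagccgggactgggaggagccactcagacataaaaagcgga
It held 2 GC boxes of the Sp1 type (GGGCGG, at -100 and -85), a motif found in 32.7% of all windows, and 1 CCAAT box at -231.

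Igf2 stood at -0.19, 0.39 and 0.52 in neonatal cells on wild-type sections and at -0.27, 0.20 and 0.12 on APdE9 sections. It stood at -1.20, -1.40 and -1.37 in adult cells on wild-type sections and at 0.04, 0.02 and 0.32 on APdE9 sections. Adult cells on wild-type sections were lower than all other arrays, and the remaining 3 groups overlapped. The effect of the section on Igf2 was 1.45 ± 0.18 in adult cells (adjusted p = 0.000125), a 2.73-fold higher signal, and -0.23 ± 0.18 in neonatal cells (adjusted p = 0.678, 95% interval -0.61 to 0.16), with a difference of 1.68 ± 0.25 (adjusted p = 0.00131). Adult cells were lower than neonatal cells on wild-type sections (-1.57 ± 0.18, adjusted p = 2.12e-05) and not called on APdE9 sections (0.11 ± 0.18, adjusted p = 0.713). Its 2 probe sets gave 2.01 and 0.89 for the adult section effect, each called. For the difference of the effects the former was called at 2.24 and the latter, at 1.12, was not (adjusted p = 0.102).

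Both receptors were highest in adult cells on wild-type sections, by margins well under those of the ligands. Igf1r, on chromosome 7 (67952257 to 68233668, plus strand), stood at 0.32, 0.52 and 0.35 there and at 0.08, 0.02 and -0.05 in adult cells on APdE9 sections. In neonatal cells it stood at -0.12, -0.16 and 0.01 on wild-type sections and at -0.24, -0.10 and -0.04 on APdE9 sections. Adult cells on wild-type sections were above all other arrays, and the other 3 groups overlapped. Between sections Igf1r differed by -0.38 ± 0.09 in adult cells (adjusted p = 0.00904), a 1.30-fold lower signal, and -0.04 ± 0.09 in neonatal cells (adjusted p = 0.938). The difference of the effects was not called (-0.34 ± 0.12, adjusted p = 0.106), but was with array weights (-0.44, adjusted p = 0.0153) and by the probe set with the largest SD (-1.33, adjusted p = 0.0138). With age Igf1r rose on wild-type sections (0.48 ± 0.09, adjusted p = 0.000906) and was not called on APdE9 sections (0.14 ± 0.09, adjusted p = 0.278).

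The 5 probe sets of Igf1r did not give a single picture. For the adult section effect they ran from -1.01 to 0.10, and 2 of them were called lower. The lowest, which is the probe set with the largest SD named above, gave -1.01 ± 0.21. Its difference of the effects was called (-1.34 ± 0.30, adjusted p = 0.0183). The highest gave 0.10 ± 0.12 for the adult section effect (adjusted p = 0.655). For age on wild-type sections, where 22.9% of all probe sets were called, they ran from 0.04 to 1.35 and 2 of 5 were called.

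Igf2r, on chromosome 17 (12682406 to 12769706, minus strand), stood at 0.50, 0.29 and 0.24 in adult cells on wild-type sections and at 0.12, 0.01 and -0.02 on APdE9 sections. The neonatal values were -0.04, -0.24 and -0.14 on wild-type sections and -0.34, 0.14 and -0.43 on APdE9 sections, the last with the widest spread of any group of this gene. Neonatal APdE9 replicate 2 lay apart from the other 2 arrays of its group. The adult section effect was -0.30 ± 0.13 and missed the threshold (adjusted p = 0.144), although the adult groups did not overlap. Without neonatal APdE9 replicate 2 its adjusted p was 0.0413. The rise with age on wild-type sections (0.48 ± 0.13, adjusted p = 0.0155) had an adjusted p of 0.0677 without adult wild-type replicate 1 and of 0.065 without neonatal wild-type replicate 2, and 1 of the 2 probe sets carried it (0.85 against 0.11). On APdE9 sections the age difference of 0.24 ± 0.13 was not called (adjusted p = 0.224), but was 0.42 (adjusted p = 0.0132) without neonatal APdE9 replicate 2.

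Igfbp3, the main carrier of IGF in serum, was the member that rose on APdE9 sections at both ages. It lies on chromosome 11 (7206086 to 7215498, minus strand). Its supplied start region is shown for that reason. It too lies inside the span of the gene, so the bases before the outer end at 7215498 are not shown.
Igfbp3, chr11:7213924-7214173, minus strand: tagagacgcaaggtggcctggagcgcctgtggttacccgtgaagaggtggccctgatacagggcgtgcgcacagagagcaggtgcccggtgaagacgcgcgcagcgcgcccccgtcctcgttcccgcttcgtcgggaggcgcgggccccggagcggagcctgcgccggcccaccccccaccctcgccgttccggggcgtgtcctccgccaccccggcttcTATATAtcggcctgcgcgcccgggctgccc
Its G and C content was 73.2%, against a median of 52.4% over all windows, and the sole motif matched was TATATA at -30, found in 5.25% of windows. No STAT site (TTCNNNGAA), interferon-stimulated element core or FOXO site (GTAAACA) was matched in any of the 14 windows of the 10 members; this says only that these letters are not in these 250 bases.

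Igfbp3 stood at -0.36, -0.43 and -0.44 in neonatal cells on wild-type sections and at 0.52, 0.67 and 0.36 on APdE9 sections. In adult cells it stood at -0.999, -1.08 and -1.30 on wild-type sections and at 0.70, 0.51 and 0.53 on APdE9 sections. The groups on wild-type sections were apart from each other and from the groups on APdE9 sections, which overlapped at the top. Between sections Igfbp3 differed by 0.93 ± 0.10 in neonatal cells (1.90-fold, adjusted p = 0.000608) and 1.71 ± 0.10 in adult cells (3.27-fold, adjusted p = 5.51e-07), and the adult effect was larger by 0.78 ± 0.14 (adjusted p = 0.00509). Igfbp3 was lower in adult than in neonatal cells on wild-type sections (-0.72 ± 0.10, adjusted p = 0.000162), and the age difference was not called on APdE9 sections (0.06 ± 0.10, adjusted p = 0.713). Its 2 probe sets gave 0.92 and 0.94 in neonatal cells and 1.66 and 1.75 in adult cells, each called, where 2% of all probe sets were called in the neonatal comparison. Leaving out any of the 12 arrays in turn kept the neonatal call, with differences between 0.85 and 1.01.

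Igfbp5, which binds to extracellular matrix, had the signs of Igf2 in each called comparison of that ligand. It lies on chromosome 1 (72858065 to 72874865, minus strand), 5590 bases from the end of Igfbp2 (72824480 to 72852474, plus strand), and the neighbours point towards each other. Its start region is shown beside that of Igf2.
Igfbp5, chr1:72874866-72875115, minus strand: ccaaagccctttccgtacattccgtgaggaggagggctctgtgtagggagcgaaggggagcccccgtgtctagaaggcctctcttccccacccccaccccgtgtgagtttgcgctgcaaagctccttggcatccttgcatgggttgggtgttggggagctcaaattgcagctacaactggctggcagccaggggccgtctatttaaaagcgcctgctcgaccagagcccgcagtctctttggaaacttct
None of the 9 motifs searched was matched there.

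Igfbp5 stood at 0.29, 0.23 and 0.40 in neonatal cells on wild-type sections and at 0.08, 0.36 and 0.25 on APdE9 sections. In adult cells it stood at -1.32, -1.47 and -1.33 on wild-type sections and at -0.29, -0.22 and -0.04 on APdE9 sections. The neonatal groups overlapped, the adult cells on APdE9 sections lay just below them, and the adult cells on wild-type sections lay far below. The section effect was 1.19 ± 0.10 in adult cells (2.27-fold, adjusted p = 5.17e-06) and -0.08 ± 0.10 in neonatal cells (adjusted p = 0.836, 95% interval -0.29 to 0.13), and the difference was 1.27 ± 0.14 (adjusted p = 0.000133). Adult cells were lower on wild-type sections (-1.68 ± 0.10, adjusted p = 4.67e-08) and, by less, on APdE9 sections (-0.42 ± 0.10, adjusted p = 0.00689). Over the 12 arrays Igf2 and Igfbp5 correlated at Pearson's r = 0.93, the highest of the 45 pairs of members, a description of arrays that share their groups.

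The 2 probe sets of Igfbp5 agreed in sign and not in size in the adult section effect. They gave 2.02 ± 0.14 and 0.35 ± 0.10, each called. In the same order their age differences on wild-type sections were -3.05 and -0.32, and of their differences between the effects 2.34 was called and 0.19 was not (adjusted p = 0.524). For age on APdE9 sections -0.71 was called and -0.13 was not (adjusted p = 0.462). The mean used for the gene lies between them and does not describe either.

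**Figure D3:**
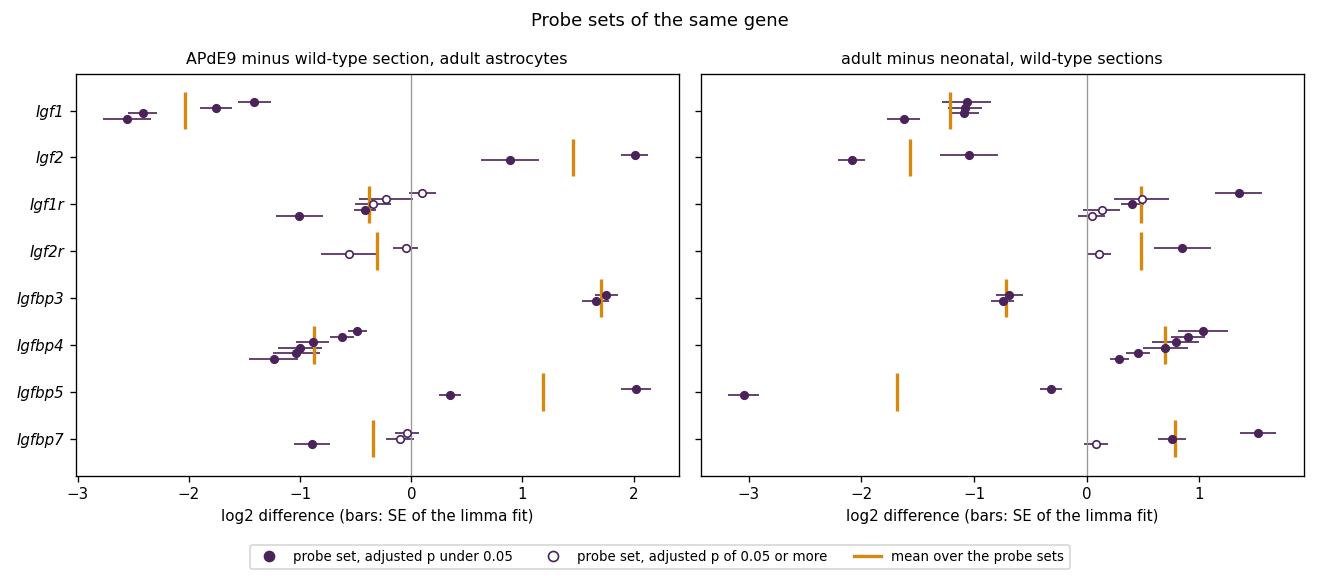
Log2 differences of single probe sets (points, bars are SE of the limma fit; filled where the adjusted p is under 0.05) for the 8 members with more than 1 probe set, for the section effect in adult cells (left) and for age on wild-type sections (right); the vertical bar is the mean over probe sets. All probe sets of Igf1, Igf2, Igfbp3, Igfbp4 and Igfbp5 are called in both panels. On the left those of Igfbp5 run from 0.35 to 2.02 and those of Igf1r from -1.01 to 0.10.

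Igfbp4, a binding protein that inhibits IGF action until it is cut by the protease pappalysin 1, fell on APdE9 sections in adult cells. It lies on chromosome 11 (99040005 to 99052655, plus strand). It stood at 0.88, 0.56 and 0.65 in adult cells on wild-type sections and at -0.26, -0.11 and -0.18 on APdE9 sections. In neonatal cells it stood at -0.03, -0.05 and 0.08 on wild-type sections and at -0.34, 0.33 and -0.06 on APdE9 sections. Adult cells on wild-type sections were above all others, and neonatal cells on APdE9 sections had a range that covered both remaining groups, which did not overlap each other. The section effect was -0.88 ± 0.14 in adult cells (1.84-fold lower, adjusted p = 0.00116) and -0.03 ± 0.14 in neonatal cells (adjusted p = 0.981, 95% interval -0.34 to 0.29). The difference of the effects was -0.85 ± 0.20 (adjusted p = 0.0208); its adjusted p was 0.0556 without neonatal wild-type replicate 2, 0.05 without adult wild-type replicate 1 and 0.0605 with quantile normalization. Each of its 6 probe sets was called lower in the adult section effect, from -1.24 to -0.48, and higher with age on wild-type sections, from 0.29 to 1.03; for the difference of the effects 4 of the 6 were called, and the others had adjusted p of 0.109 and 0.117.

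Igfbp6, which binds Igf2 in preference to Igf1, had the widest range of the members, and its groups separated by age. It lies on chromosome 15 (102144186 to 102149512, plus strand) and was read by 1 probe set. Its start region is shown because no other member differed as much with age.
Igfbp6, chr15:102143936-102144185, plus strand: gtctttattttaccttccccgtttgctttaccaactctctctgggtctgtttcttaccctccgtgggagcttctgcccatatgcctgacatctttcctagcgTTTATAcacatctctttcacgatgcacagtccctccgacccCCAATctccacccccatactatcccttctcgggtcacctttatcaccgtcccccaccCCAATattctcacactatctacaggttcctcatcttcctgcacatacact
It held 2 CCAAT boxes (at -107 and -50) and 1 TATA box (TATAAA, on the opposite strand at -148), the latter in 12.4% of windows.

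Igfbp6 stood at -2.14, -1.91 and -1.92 in neonatal cells on wild-type sections and at -2.37, -2.53 and -2.49 on APdE9 sections. In adult cells it stood at 1.91, 2.44 and 2.59 on wild-type sections and at 2.09, 2.36 and 2.61 on APdE9 sections. The ages were far apart and the adult groups overlapped. Adult cells were higher by 4.30 ± 0.17 on wild-type sections (19.7-fold, adjusted p = 1.48e-09) and by 4.81 ± 0.17 on APdE9 sections (28.1-fold, adjusted p = 1.09e-09). The section effect was not called in neonatal cells (-0.48 ± 0.17, adjusted p = 0.17), although those groups did not overlap, nor in adult cells (0.04 ± 0.17, adjusted p = 0.9). With array weights the neonatal effect was -0.55 (adjusted p = 0.0188). With quantile normalization, which reshapes the extremes of centred values, the adult effect was 0.67 (adjusted p = 0.0408) and the difference of the effects 1.38 (adjusted p = 0.0105).

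Igfbp2, the binding protein made by astrocytes in brain, also separated by age, in the opposite direction. It was read by 1 probe set. It stood at 1.02, 1.08 and 0.95 in neonatal cells on wild-type sections and at 0.66, 0.99 and 0.72 on APdE9 sections. In adult cells it stood at -0.94, -0.71 and -0.66 on wild-type sections and at -1.14, -0.72 and -0.88 on APdE9 sections. The groups of each age overlapped and the ages did not. Adult cells were lower by a log2 difference of -1.79 ± 0.12 on wild-type sections (3.45-fold, adjusted p = 2.57e-07) and of -1.70 ± 0.12 on APdE9 sections (3.25-fold, adjusted p = 5.45e-07). The section effect was -0.23 ± 0.12 in neonatal cells (adjusted p = 0.452, 95% interval -0.50 to 0.04) and -0.14 ± 0.12 in adult cells (adjusted p = 0.479, 95% interval -0.41 to 0.13). Igfbp2 and Igfbp6 correlated at r = -0.96 over the 12 arrays, the lowest of the 45 pairs. Beside the lower Igfbp2, the mean of the 14 astrocyte markers lay between 0.48 and 1.00 on the neonatal arrays and between -0.67 and -0.58 on the adult arrays. For age on wild-type sections 11 of these markers were lower and 2 higher, with a median of -1.03 (30.1% of all genes called). The lowest were Aldoc, a brain aldolase, at -4.97 ± 0.08 and Gfap, the astrocyte filament protein, at -4.24 ± 0.11. Those higher were S100b (0.58 ± 0.12) and Gja1 (0.35 ± 0.09). The part of these markers in the Igfbp2 difference was not tested.

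Igfbp7, a relative that binds IGF weakly and is known from vessel walls, rose with age. It lies on chromosome 5 (77349240 to 77408045, minus strand). It stood at -0.51, -0.22 and -0.15 in neonatal cells on wild-type sections and at -0.73, -0.52 and -0.44 on APdE9 sections. In adult cells it stood at 0.35, 0.57 and 0.57 on wild-type sections and at 0.13, 0.17 and 0.16 on APdE9 sections. The neonatal groups overlapped, and the adult groups lay above them without overlap between sections. Adult cells were higher by 0.79 ± 0.11 on wild-type sections (adjusted p = 0.000124) and by 0.71 ± 0.11 on APdE9 sections (adjusted p = 0.000375). Of its 3 probe sets 2 were called higher with age on each section, where 22.9% and 16.4% of all probe sets were called. The remaining probe set was at 0.08 and 0.01 (adjusted p = 0.676 and 0.959). The section effect of -0.35 ± 0.11 in adult cells was called (adjusted p = 0.0472) and that of -0.27 ± 0.11 in neonatal cells was not (adjusted p = 0.255), except with array weights (-0.30, adjusted p = 0.0393); their difference was -0.08 ± 0.15 (adjusted p = 0.831). The adult call stood in 5 of the 12 fits that left out 1 array. It was lost without adult wild-type replicate 2 (adjusted p = 0.155) or 3 (0.134), without adult APdE9 replicate 1 (0.109), 2 (0.105) or 3 (0.0895), and without neonatal wild-type replicate 2 (0.0624) or neonatal APdE9 replicate 2 (0.0593). It rested on 1 of 3 probe sets (-0.89 ± 0.16), the others being at -0.10 and -0.04. Of 14 endothelial and mural cell markers 4 were higher and 5 lower with age on wild-type sections, with a median of -0.09 (30.1% of all genes called). None of these markers was called in the adult section effect, where 17.7% of all genes were. Their part in the Igfbp7 values was not tested.

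**Figure D4:**
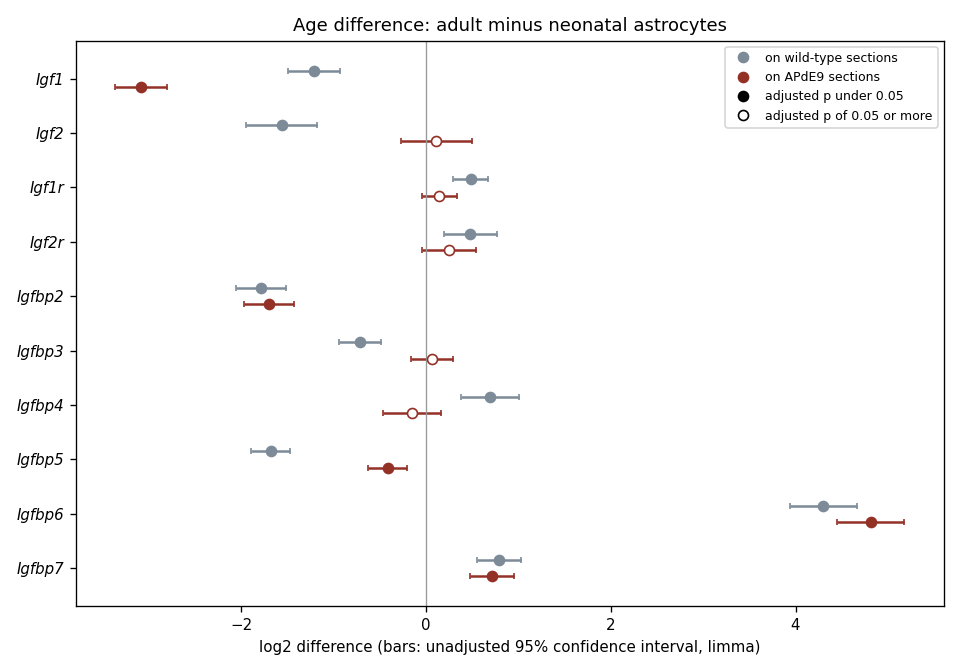
Log2 difference between adult and neonatal astrocytes (x axis) for each of the 10 genes (y axis) on wild-type (grey) and APdE9 (red) sections, 3 arrays per group; bars are unadjusted 95% confidence intervals and filled points have an adjusted p under 0.05. Igfbp6 lies at 4.30 and 4.81, Igfbp2 at -1.79 and -1.70, and Igf2 and Igfbp3 differ on wild-type sections (-1.57 and -0.72) and not by the test on APdE9 sections.

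Ordered by group mean, adult cells on wild-type sections stood at an end of the order in 7 of the 10 members. They were lowest for Igf2, Igfbp3 and Igfbp5 and highest for Igf1r, Igf2r, Igfbp4 and Igfbp7. For any gene 2 of the 4 groups stand at an end. Adult cells on APdE9 sections were lowest in 3 members and highest in 2. Neonatal cells were highest in 4 on wild-type sections and lowest in 4 on APdE9 sections. In 14 of the 30 steps between neighbouring groups the ranges overlapped, so the order there is not fixed beyond the spread of the arrays. These counts were not made over all genes, so they cannot be read as particular to the members. For Igfbp5 the order ran from adult cells on wild-type sections through adult cells on APdE9 sections to the neonatal groups, of which only the last pair overlapped.

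The genes whose pattern over the 12 arrays was most like that of a member, outside the list, were found by Pearson's r, as a description of arrays that share their groups. For Igfbp6 they were Pamr1, Adamtsl3 and Perp (r = 0.996, 0.994 and 0.994), for Igfbp2 Hacd2, Syt11 and Zcchc18 (0.99 each), and for Igf1 Tmsb4x, Steap4 and Fabp5 (0.99, 0.99 and 0.98). For Igfbp3 they were Tgfb2, Mmp3 and Phf11d (0.97, 0.97 and 0.96), for Igfbp5 Scarb2, Pepd and Ppm1l (0.99 each) and for Igf2 Ppp3ca, St6gal1 and Dnajc16 (0.99, 0.96 and 0.95). For Igf1r they were Styk1, Unc5c and Ang2 (0.96 each) and for Igf2r Tnrc6a, Spop and Wdr48 (0.97, 0.94 and 0.94). For Igfbp4 they were Ahcyl1, Pdc and Rexo2 (0.95, 0.95 and 0.94) and for Igfbp7 Fnta, Ndnf and Thbd (0.99, 0.98 and 0.98). After the group means were removed the correlation with Igfbp3 was 0.20 for Tgfb2 and -0.11 for Mmp3, and that of Ppp3ca with Igf2 was 0.90. Over all these pairs it then ran from -0.11 to 0.92, the highest being Wdr48 with Igf2r.

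Other proteins set how much IGF is free or how Igf2 mRNA is used. Of 10 measured genes of this list 2 rose and 1 fell with the section in adult cells, where 17.7% of all genes were called, and 1 rose in neonatal cells, where 3.76% were; the median difference was 0.06 in adult cells, against 0.05 over all genes. Htra1, a secreted serine protease, rose by 1.32 ± 0.09 in adult cells (adjusted p = 9.71e-07), and the difference from the neonatal effect was 1.39 ± 0.12 (adjusted p = 2.98e-05). Pappa, the gene of pappalysin 1 that cuts Igfbp4, was lower by -0.51 ± 0.07 in adult cells (adjusted p = 0.000298) and higher by 0.35 ± 0.07 in neonatal cells (adjusted p = 0.0159), with a difference of -0.86 ± 0.10 (adjusted p = 0.000221). The neonatal call of Pappa was lost without neonatal wild-type replicate 2 (adjusted p = 0.0773), without neonatal APdE9 replicate 3 (0.061) and with only the 6 arrays compared (0.0945). Stc1, an inhibitor of pappalysins, was at 0.61 ± 0.15 in adult cells (adjusted p = 0.0162), and its adjusted p was 0.0597 without adult APdE9 replicate 3, 0.0568 without adult wild-type replicate 2 and 0.0644 without adult wild-type replicate 3.

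With age on wild-type sections 2 of the 10 rose and 3 fell (30.1% of all genes called), and on APdE9 sections 2 rose and 1 fell (23.5% of all genes called). Pappa was higher in adult cells by 1.73 ± 0.07 on wild-type sections (adjusted p = 2.07e-09) and by 0.87 ± 0.07 on APdE9 sections (adjusted p = 1.4e-06). Htra1 was at -1.61 ± 0.09 on wild-type sections (adjusted p = 2.5e-08). Igf2bp3, which binds Igf2 mRNA, was lower by -1.37 ± 0.13 on wild-type sections (adjusted p = 3.32e-06) and by -1.50 ± 0.13 on APdE9 sections (adjusted p = 2.06e-06). Igfbp1 and Igfals, the liver binding protein and the serum carrier subunit, were not called in any of the 5 comparisons, with differences between -0.17 and 0.12; they were named after their values were seen.

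The cascade below the receptors had medians near 0. Of 32 measured genes of insulin and IGF signalling, out of 40 listed, 3 rose and 7 fell with the section in adult cells (median 0.00), against 8.26% higher and 9.4% lower over all genes. In neonatal cells 1 fell (median -0.04), against 2.55% lower over all genes. Grb14, an adaptor that restrains the insulin receptor, fell by 0.89 in adult cells (SE 0.09, adjusted p = 2.72e-05), and Eif4ebp1, a repressor of translation under mTOR, by 0.60 (SE 0.11, adjusted p = 0.00282). The insulin receptor gene Insr, also named after its values were seen, was not called in any of the 5 comparisons, with differences between -0.21 and 0.16. Rictor, of mTOR complex 2, and Pik3cb, a PI3K subunit, were at -0.88 and 0.65 in adult cells (adjusted p = 0.0267 and 0.0388). Rictor lost its call in 5 of the 12 fits that left out 1 array and Pik3cb in 6, with adjusted p up to 0.113 (without adult wild-type replicate 2) and 0.135 (without adult APdE9 replicate 1). Tsc2, at -0.51 in neonatal cells (adjusted p = 0.0465), lost its call in 10 of these 12 fits, up to 0.162 without neonatal APdE9 replicate 1.

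With age 10 of these 32 genes rose and 4 fell on wild-type sections, where 14.9% of all genes were higher and 15.2% lower. On APdE9 sections 9 rose and 2 fell, where 11.7% were higher and 11.9% lower. Shc1, an adaptor of the ERK branch, was higher by 0.99 ± 0.10 on wild-type sections (adjusted p = 7.87e-06) and by 0.95 ± 0.10 on APdE9 sections (adjusted p = 1.51e-05). Eif4ebp1 (1.26 ± 0.11) and Grb10, another receptor adaptor (1.01 ± 0.09), rose on wild-type sections and Pik3cb was lower (-1.58 ± 0.20).

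Targets of FOXO factors, which are active when insulin or IGF signalling is low, were called about as often as all genes in the section effects. Of 18 such genes, most of them known as induced by FOXO and Ccnd2 as repressed, 2 rose and 1 fell in adult cells (median -0.05; 17.7% of all genes called) and 1 rose in neonatal cells (median 0.01; 3.76% of all genes called). Pdk4, an inhibitor of pyruvate dehydrogenase, rose by 1.25 ± 0.20 in adult cells (adjusted p = 0.000997) and was at 0.85 ± 0.20 in neonatal cells (adjusted p = 0.0372), a call lost in 8 of the 12 fits, up to 0.135 without neonatal wild-type replicate 2. Cyclin D2, Ccnd2, was lower by -0.91 ± 0.09 in adult cells (adjusted p = 2.96e-05). With age 2 rose and 5 fell on wild-type sections (30.1% of all genes called), and 1 rose and 7 fell on APdE9 sections (23.5% called), with Pdk4 at -1.73 and -1.34 and Sesn3, a stress-induced sestrin, at -1.16 and -1.04.

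The CCN proteins share the amino-terminal domain of the IGF binding proteins. Of 6 measured, 1 rose and 2 fell with the section in adult cells, where 17.7% of all genes were called, and 1 fell in neonatal cells, where 3.76% were. Ccn3 rose by 1.38 ± 0.15 in adult cells (adjusted p = 4.37e-05), Ccn2, the connective tissue growth factor, was lower by -1.14 ± 0.14 (adjusted p = 0.000152) and Ccn5 by -0.85 ± 0.11 (adjusted p = 0.000152). Ccn5 was at -0.50 in neonatal cells (adjusted p = 0.0235), a call lost in 5 of the 12 fits, up to 0.0809 without neonatal APdE9 replicate 1.

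Markers of other cells that make IGF proteins were set beside these results. Over all genes 17.7% were called with the section in adult cells (8.26% higher, 9.4% lower). With age on wild-type sections 30.1% were called (14.9% higher, 15.2% lower). Of 13 meningeal and perivascular fibroblast markers 3 rose and 3 fell with the section in adult cells, led by the collagen gene Col1a1 (-1.79 ± 0.16). With age on wild-type sections 4 rose and 4 fell, with Col1a1 at 4.06 and Aldh1a2, a retinoid enzyme of meninges, at -4.68. Of the 14 fibroblast markers listed, Nov is missing from these counts, as it was measured under its other name, Ccn3. Ccn3 rose in both comparisons (1.38 ± 0.15 and 0.67 ± 0.15). Of 12 choroid plexus and ependymal markers 2 rose with the section in adult cells, Otx2 at 0.85 ± 0.13 and Kcne2 at 0.37 ± 0.09, and 6 fell with age on wild-type sections, Otx2 at -2.95 and the choroid plexus gene Ttr at -2.15. Of 11 oligodendrocyte-lineage markers 5 rose and 0 fell in the adult section effect, led by Olig2 at 1.53 ± 0.23 and Olig1 at 1.30 ± 0.09. With age on wild-type sections 2 of the 11 rose and 4 fell, Olig1 at -4.00 and Olig2 at -3.60. Of 12 neuron markers 2 fell and 0 rose in the adult section effect, Tubb3 at -0.96 ± 0.22 and Stmn2 at -0.32 ± 0.09. With age on wild-type sections 2 neuron markers rose and 2 fell. The part of such cells in the values of the members was not tested.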

How the data were processed

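Per the submitters' processing notes, array signals were computed with RMA, with no version given. The deposited columns of 8 arrays hold what RMA usually gives, log2 signals, although no label names the log base. The score deposited for the remaining 4 arrays was also computed with RMA, per the submitters' processing notes. It is called a score only because 6 of its values had a size above 100. These 6 were set to missing, and all other values were used as log2 signals, as in the 8 arrays. The 12 arrays had a median of 0 within 1e-06 in each of 45095 complete probe sets.

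Of 45101 probe sets, 64 controls were left out. Of the 45037 tested, 34945 had a single gene in the supplied annotation, 932 had several and 9160 had none; 34741 of the single-gene probe sets matched RefSeq (GRCm38.p6) by gene ID. Single-gene probe sets were averaged into 18193 genes. Moderated statistics (residual degrees of freedom 8, prior 3.97) came from a model of 4 group means over the 12 arrays, fitted in R 4.3.3 with limma 3.58.1. The Benjamini-Hochberg adjustment of p-values ran over all genes, or over all probe sets where a probe set is named, at a threshold of 0.05. The fit was tested on simulated data.

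The members and gene lists were chosen with earlier results of these data known. Named genes are the 10 members, up to 4 called genes per list and comparison with the largest differences, and the 3 genes most correlated with each member. Promoter windows and coordinates are from RefSeq (GRCm38.p6), which gave 14 windows for the 10 members. Alternatives were quantile normalization, array weights, a replicate block, the probe set with the largest SD, single probe sets, a filter that dropped 40% of probe sets by SD, fits of only the arrays compared, and leaving out each array.

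To see whether equal replicate numbers pair the arrays, their deviations from group means were correlated, and a correlation over 0.1 for every number was asked. The neonatal section comparison met this (0.239, 0.183 and 0.477), as did age on APdE9 sections (0.460, 0.266 and 0.503). The adult section comparison and age on wild-type sections did not. The pairing comes from the data and not from a statement in the labels.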

Additional observations from a re-analysis of the deposited data

Results flagged for a closer look

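The section effect differed between adult and neonatal cells, by the limma test of the difference itself, for 5 of the 10 members. The difference, adult minus neonatal on the log2 scale, was -1.876 for Igf1 (adjusted p = 6.31e-05), 1.677 for Igf2 (0.00131), 0.7807 for Igfbp3 (0.00509), -0.8508 for Igfbp4 (0.0208) and 1.267 for Igfbp5 (0.000133).

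Among the proteases and adaptors around the system it was 1.391 for Htra1 (adjusted p = 2.98e-05), -0.8637 for Pappa (0.000221), 0.938 for Tsc2 (0.00602), -0.932 for Eif4ebp1 (0.00325) and -0.6586 for Grb14 (0.00641). For Irs1, an adaptor of the insulin and IGF receptors, it was -0.6122 (0.0319), a call lost in 8 of the 12 fits that left out 1 array, up to 0.0821 without adult APdE9 replicate 2. Of the FOXO targets and CCN genes it was -1.147 for Ccnd2 (0.000216) and 1.081 for Ccn3 (0.00641). Groups of 3 arrays were not tested for single outlying arrays.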

How the results depend on the processing

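Of the members' results from fits without 1 array, 574 kept their direction and their side of the threshold, 13 turned sign, 11 lost and 2 gained a call; under other settings these numbers were 420, 11, 3 and 6. By single probe sets they were 99, 15, 15 and 1, a smaller share kept. The counts for fits without 1 array and for other settings were partly fixed in advance. Leaving out an array outside the groups compared cannot change the difference, only its spread. The replicate block, a robust variance and fits of only the arrays compared keep the difference as well. So does restoring the damaged values, as no member held one. With array weights 3 members were called in neonatal cells (1 higher, 2 lower) and 2160 genes, and 3427 genes in the difference of the section effects; with only the arrays compared, 272 genes were called in neonatal cells. Leaving out 1 array gave 1 called member in neonatal cells throughout, 6 to 7 in adult cells, 4 to 5 in the difference, 9 to 10 for age on wild-type sections and 5 to 6 on APdE9 sections. Genes called ranged from 263 (without neonatal wild-type replicate 2) to 761 in neonatal cells, with 411 and 436 without neonatal APdE9 replicates 1 and 2, and from 1208 (without neonatal wild-type replicate 2) to 1811 in the difference, with 1218 without adult wild-type replicate 2. With the replicate number as a block the members called were 1, 7, 5, 10 and 5 in the 5 comparisons, in the order neonatal section, adult section, difference, age on wild-type and age on APdE9 sections, and the pairing changed no call of a member or of a named gene of the availability, signalling, FOXO and CCN lists (markers and correlated genes were not compared); it called 1013, 4217, 2623, 6216 and 5079 genes.

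Signs turned for values that were not called, with 1 exception, the adult effect of Igf1r, called at -0.38, which was 0.101 by a single probe set (adjusted p = 0.655). In the neonatal section effect array weights gave 0.0375 for Igf1r, 0.0122 for Igf2r, 0.0531 for Igfbp4 and 0.0011 for Igfbp5. The probe set with the largest SD gave 0.186 for Igf1, 0.329 for Igf1r, 0.00601 for Igf2r (also with the SD filter) and 0.0645 for Igfbp4. Single probe sets gave 0.0812 for Igf1, 0.159 for Igfbp5, 0.028 for Igfbp7 and, for Igfbp4, 0.00453, 0.0277 and 0.0633. Quantile normalization turned the difference of the effects for Igfbp2 (-0.00846) and Igfbp7 (0.0881), and single probe sets turned it for Igfbp7 (0.308), Igf2r (0.0937) and Igf1r (0.110). Age on APdE9 sections was 0.00811 for Igfbp4 by a single probe set. The adult effect of Igfbp7 had an adjusted p of 0.185 with quantile normalization. Leaving out 1 array moved the neonatal effect from -0.0812 to 0.0166 for Igf1r, -0.242 to 0.0396 for Igf2r and -0.206 to 0.133 for Igfbp4, the adult effect of Igfbp6 from -0.160 to 0.179, the difference from -0.0128 to 0.198 for Igfbp2 and -0.160 to 0.0312 for Igfbp7, and age on APdE9 sections from -0.0326 to 0.203 for Igf2, -0.0155 to 0.142 for Igfbp3 and -0.316 to 0.0232 for Igfbp4. The causes were not tested. The filter on dim probe sets was replaced by the SD filter because levels had been removed, so signal over background is unknown.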
